A study of Mus musculus with 6 samples.

Results

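The genes described here, 6 in number, serve as markers of hepatocellular carcinoma or of the fetal liver and were read in every library of a bulk RNA-seq experiment on mouse liver tumors. They were Afp, Gpc3, Golm1, Ly6d, Tff3 and Akr1c18. Their rows were taken by gene symbol, and all 6 were found among the 24063 genes of the deposited count table. The experiment compared 3 liver tumors of WT mice (NR2E3+/+) with 3 liver tumors of Nr2e3-/- mice. All animals were C57BL/6 males. The tumors were induced with the hepatocarcinogen diethylnitrosamine (DEN), injected at 25 mg/kg at about 15 days of age, and the RNA came from the 24 week time point. NR2E3 is an orphan nuclear receptor. The labels name no Cre or tissue promoter for the knockout, and how its allele was built is not given in the sources used here. Both groups had received DEN and both were tumors, so no value below compares tumor with untreated liver. The question put to these 6 genes was whether their levels differed between the tumors of the 2 genotypes and how far they varied from tumor to tumor.

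An oncofetal gene is active in the embryo, is switched off in the adult organ and can become active again in a tumor. AFP, a serum protein related to albumin, is the classical case: the yolk sac and the fetal liver secrete it, hepatocytes silence its gene after birth, and its level in blood has long been used to follow liver cancer. GPC3, a proteoglycan held on the cell surface by a lipid anchor, follows a similar course and carries heparan sulfate chains that bind growth factors. GOLM1, also called GP73, is a membrane protein of the Golgi apparatus that can be cleaved and released into the blood. LY6D is a small lipid-anchored surface protein of the Ly6 family, best known from squamous epithelium and early B cells. TFF3 is a small secreted trefoil peptide, best known as a product of intestinal goblet cells. AKR1C18 is an aldo-keto reductase that inactivates progesterone.

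The libraries held between 15376261 and 28690279 counted reads, and the raw counts of the 6 marker genes lay between 76 and 3768 per library. Levels are given as CPM, counts per 1000000 counted reads after TMM scaling between libraries. Nr2e3 itself had 0 counts in all 6 libraries, a result that allows up to 0.105 to 0.195 CPM depending on the library total, so its level could not check the genotype labels. The library labelled Nr2e3-/- 1 stood apart from its group. Its Pearson correlation with the 3 WT libraries, computed across genes on log2 CPM, was 0.973 to 0.981, against 0.952 and 0.972 with the other Nr2e3-/- libraries. For this reason the fold change of each marker is also given without that library. Hepatocyte markers were abundant, as the tissue label implies, with Alb highest at 114248 CPM in WT and 94536 CPM in Nr2e3-/- tumors. The labels and methods give 3 mice per genotype but do not say whether tumors of 1 animal were pooled, so p-values measure the spread between these libraries. In bulk tissue, fewer cells of a type and less RNA per cell cannot be told apart.

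Afp had its highest level in WT tumors, and its spread lay almost entirely within that genotype. Its level was 135 CPM in WT 1, 43.5 CPM in WT 2 and 19.9 CPM in WT 3. In the Nr2e3-/- tumors it was 28.7, 30.1 and 21.5 CPM. Thus 2 WT tumors lay above every knockout tumor and the other WT tumor lay below all of them, so the groups overlapped. The WT tumors spanned a 6.78-fold range and the Nr2e3-/- tumors a 1.40-fold range. The group means were 66.1 ± 60.8 CPM (SD, n = 3) in WT and 26.8 ± 4.60 CPM (SD, n = 3) in Nr2e3-/- tumors. The fitted log2 fold change of Nr2e3-/- over WT was -1.30 ± 0.62 (SE), with a 95% interval from -2.76 to 0.16 and an adjusted p of 0.271 in edgeR's quasi-likelihood test. Genotype accounted for 22.7% of the variance of log2 CPM. Without WT 1 the log2 fold change was -0.24, and without Nr2e3-/- 1 it was -1.35. The exact two-sided permutation test of the 6 levels gave p = 0.4. The smallest p that 3 libraries against 3 allow is 0.1.

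Gpc3 did not share that pattern: each genotype held a tumor with a high, a middle and a low level. The gene reached 136 CPM in WT 1, 55.8 CPM in WT 2 and 30.6 CPM in WT 3. The Nr2e3-/- tumors gave 147, 57.1 and 26.8 CPM. The highest and the lowest values were both in knockout tumors, and the groups overlapped over nearly their whole range. The means were 74.0 ± 54.8 CPM (SD, n = 3) in WT and 76.9 ± 62.5 CPM (SD, n = 3) in Nr2e3-/- tumors. The log2 fold change was 0.05 ± 0.70 (SE), and its 95% interval ran from -1.60 to 1.71. The adjusted p in edgeR's quasi-likelihood test was 0.970. The mean difference was set by single tumors, since the log2 fold change was 0.83 without WT 1 and -0.81 without Nr2e3-/- 1. It also changed sign between scalings and tools, at -0.74 with limma-voom.

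The 2 classical oncofetal genes also differ in the sequence before their start. The 250 bases upstream of the RefSeq start are shown for both (RefSeq on GRCm38.p6, 5′ to 3′ on the strand of the gene), because Afp is a tightly silenced liver gene and Gpc3 a gene used in many fetal tissues. Capitals mark searched motifs on either strand. They are the letters GTTAAT. They are also the core promoter element TATAAA, known as the TATA box. The last is the element CCAAT, whose other strand reads ATTGG.
Afp, chr5:90490464-90490713, plus strand: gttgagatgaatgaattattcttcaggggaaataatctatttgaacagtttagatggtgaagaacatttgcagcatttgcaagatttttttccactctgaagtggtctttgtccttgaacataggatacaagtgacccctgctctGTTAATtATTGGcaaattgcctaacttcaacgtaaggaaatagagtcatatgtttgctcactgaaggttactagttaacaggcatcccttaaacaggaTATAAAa
Gpc3, chrX:52613975-52614224, minus strand: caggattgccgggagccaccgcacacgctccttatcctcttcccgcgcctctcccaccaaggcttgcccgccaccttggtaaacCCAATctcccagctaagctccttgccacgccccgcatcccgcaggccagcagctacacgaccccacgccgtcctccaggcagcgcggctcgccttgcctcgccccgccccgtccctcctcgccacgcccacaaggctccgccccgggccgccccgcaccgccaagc
The Afp stretch holds 36.0% G and C and 1 CpG, and the Gpc3 stretch 71.6% and 25 CpG, against a median of 52.4% over 32851 promoters of the same length. In the Afp stretch, GTTAAT lies 105 to 100 bases, CCAAT (on the other strand) 98 to 94 bases and TATAAA 7 to 2 bases before the RefSeq start. The start in GENCODE lies 23 bases further downstream, which puts TATAAA 30 to 25 bases before it. Over all promoters, 6.43% held GTTAAT, 12.4% held TATAAA and 33.9% held CCAAT on either strand. The shares were 3.36% for AAGTCCA and 6.75% for TGANTCA. In the Gpc3 stretch CCAAT was the only match among these motifs, at 166 to 162 bases before the start. The promoter of Golm1 held 65.6% G and C with 20 CpG and that of Akr1c18 held 41.6% with 5 CpG. Golm1 had TATAAA and CCAAT, both on the other strand, and Akr1c18 had none of the searched motifs. Ly6d and Tff3 had no entry among the promoters used here. These matches are descriptions of letters and were not tested for binding.

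Of the secreted and Golgi markers, Golm1 had the narrowest range of the 6, 2.70-fold, and Tff3 spanned 6.16-fold, and the mean was lower in Nr2e3-/- tumors for Golm1 and higher for Tff3. Golm1 was measured at 37.3, 31.5 and 16.9 CPM in WT 1, 2 and 3 and at 13.8, 22.3 and 16.3 CPM in Nr2e3-/- 1, 2 and 3. The 2 highest tumors were WT, while WT 3 lay between knockout tumors, so the groups overlapped. Golm1 averaged 28.6 ± 10.5 CPM (SD, n = 3) in WT and 17.5 ± 4.38 CPM (SD, n = 3) in Nr2e3-/- tumors. The fitted log2 fold change of Golm1, -0.70 ± 0.31 (SE), had the lowest unadjusted p of the 6 markers, 0.0563, and an adjusted p of 0.243 in edgeR's quasi-likelihood test. Genotype took the largest share of variance for this marker, 40.2%, against a median of 31.4% over all tested genes. Without Nr2e3-/- 1 the log2 fold change was -0.55, and over all libraries left out in turn it ran from -0.97 to -0.46. The exon sequence of Golm1 overlaps the gene Naa35 on the opposite strand, which had 28.3 ± 2.81 CPM in WT and 25.4 ± 2.64 CPM in Nr2e3-/- tumors (SD, n = 3 each). Whether exons of Naa35 lie in the overlap was not looked up. The strand setting of the counting is not given in the sources used here, so any reads of such a shared stretch cannot be told apart.

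Tff3 was highest in Nr2e3-/- tumors. Its levels were 70.9, 50.3 and 22.7 CPM in the WT tumors and 85.6, 139.9 and 34.0 CPM in the Nr2e3-/- tumors. Knockout tumors 1 and 2 lay above all WT tumors, and knockout tumor 3 lay below WT 1 and WT 2. Tff3 averaged 48.0 ± 24.2 CPM (SD, n = 3) in WT and 86.5 ± 53.0 CPM (SD, n = 3) in Nr2e3-/- tumors. The log2 fold change was 0.85 ± 0.56 (SE), with a 95% interval from -0.45 to 2.16 and an adjusted p of 0.398 in edgeR's quasi-likelihood test. It was 0.87 without Nr2e3-/- 1, but 0.32 without Nr2e3-/- 2, 0.51 without WT 3, 1.24 without either WT 1 or Nr2e3-/- 3, and 0.16 with limma-voom. Of 5 goblet cell markers, Muc2, Fcgbp, Spdef and Agr2 were under 0.31 CPM in every library. The other, Clca1, was 7.03, 7.003 and 5.62 CPM in WT and 4.57, 9.80 and 3.95 CPM in Nr2e3-/- tumors, highest in the tumor with the most Tff3. The 5 summed to 5.86 to 7.51 CPM in WT and 4.43 to 9.91 CPM in Nr2e3-/- tumors. The count table holds some older gene symbols, and whether its Clca1 row is the goblet cell gene was not checked. The summed level of 6 bile duct markers was 57.3 to 119 CPM in WT and 69.1 to 429 CPM in Nr2e3-/- tumors. Most of that sum was Spp1, which had 410 CPM in Nr2e3-/- 2, the tumor with the most Tff3, and Epcam was highest in the same tumor, at 10.95 CPM against 1.80 to 2.37 CPM in WT. Sox9 ranged from 5.79 to 8.999 CPM, and Krt7, Krt19 and Cftr stayed under 2 CPM. The part of bile duct or goblet cells in the level of Tff3 was not tested.

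Ly6d was the most variable marker, with an 18.5-fold range over the 6 tumors. It was counted at 38.9, 92.9 and 12.9 CPM in WT 1, 2 and 3. The Nr2e3-/- tumors gave 5.03, 57.0 and 24.7 CPM. The lowest of these rested on 76 reads, for which the exact Poisson interval (95%, counting error only) was 3.96 to 6.30 CPM, so counting error was small beside the difference between tumors. The second tumor of each genotype was the highest of its group and the groups overlapped. Ly6d averaged 48.2 ± 40.8 CPM (SD, n = 3) in WT and 28.9 ± 26.2 CPM (SD, n = 3) in Nr2e3-/- tumors. The log2 fold change was -0.73 ± 0.89 (SE), with a 95% interval from -2.82 to 1.37 and an adjusted p of 0.654 in edgeR's quasi-likelihood test. It was -0.23 without Nr2e3-/- 1, 0.17 without WT 2, -1.19 without WT 3 and -1.68 without Nr2e3-/- 2. Markers of the cell types for which Ly6d is best known were read beside it. The squamous markers Krt5, Krt14 and Trp63 did not exceed 0.77 CPM, and none of the B cell markers Cd79a, Cd79b and Ms4a1 exceeded 1.39 CPM. Their summed level was 2.42 to 2.57 CPM in WT and 0.595 to 1.26 CPM in Nr2e3-/- tumors. The part of these cell types in the level of Ly6d was not tested.

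Akr1c18 was among the steadier markers. Its levels were 118, 82.7 and 52.7 CPM in the WT tumors and 57.9, 87.5 and 36.9 CPM in the Nr2e3-/- tumors. WT 1 was the highest and Nr2e3-/- 3 the lowest, with the other tumors of both genotypes interleaved. Akr1c18 averaged 84.5 ± 32.8 CPM (SD, n = 3) in WT and 60.8 ± 25.4 CPM (SD, n = 3) in Nr2e3-/- tumors. The log2 fold change was -0.47 ± 0.37 (SE), with a 95% interval from -1.35 to 0.41 and an adjusted p of 0.479 in edgeR's quasi-likelihood test. Without Nr2e3-/- 1 it was -0.43. It moved further when other tumors were left out, to -0.15 without WT 1, -0.21 without Nr2e3-/- 3, -0.73 without WT 3 and -0.83 without Nr2e3-/- 2, and it was -0.83 with limma-voom. Of the 50-base windows of its exons, 0.581% were shared with the relative Akr1cl, which had at most 1 count in any library.

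**Figure D1:**
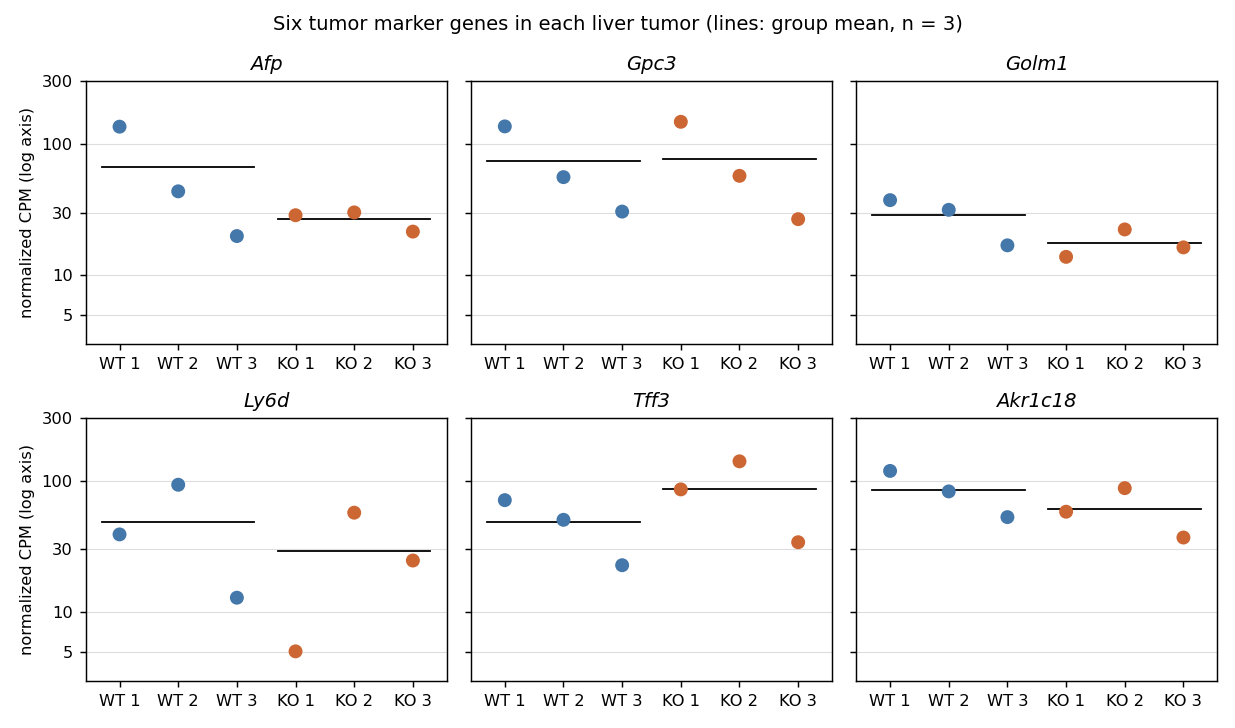
Level of each of the 6 markers in the 3 WT and 3 Nr2e3-/- (KO) liver tumor libraries, in TMM-normalized CPM on a log axis. Points are libraries, coloured by genotype, and horizontal lines are group means (n = 3). Values of the 2 genotypes overlap for every marker, and the spread is widest for Ly6d, from 5.03 to 92.9 CPM.

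Over the 6 markers, 0 were called at an adjusted p under 0.05 in edgeR's quasi-likelihood test and 0 had an unadjusted p under 0.05. In the same fit 13 of 13572 tested genes were called after adjustment (0.0958%) and 2916 (21.5%) had an unadjusted p under 0.05. The levels of WT and Nr2e3-/- tumors did not overlap for 3642 tested genes (26.8%), and for 0 of the 6 markers. All 6 passed the filter on low counts. The log2 fold change was negative for Afp, Golm1, Ly6d and Akr1c18 and positive for Gpc3 and Tff3; for Gpc3 it changed sign with upper quartile scaling and limma-voom. The median over the markers was -0.59, against 0.01 over all tested genes. Each 95% interval included 0, and the exact permutation p lay between 0.2 for Golm1 and 1 for Gpc3. Missing the threshold does not show that the genotypes were alike: only for Golm1 and Akr1c18 did the interval stay within 1.5 on the log2 scale on both sides.

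**Figure D2:**
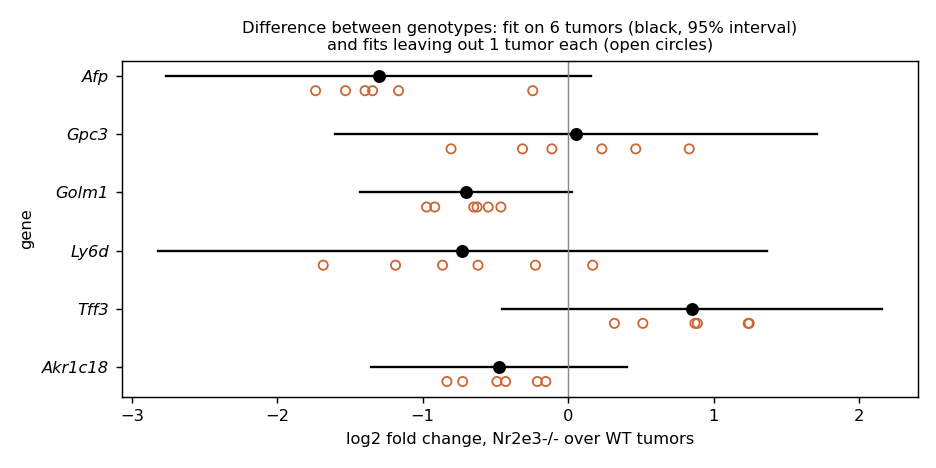
Log2 fold change of Nr2e3-/- over WT tumors for each marker, with black points for the fitted value, black lines for the 95% interval from edgeR's quasi-likelihood fit and open circles for the fits that left out 1 tumor each. Every interval crosses 0, from -2.82 to 1.37 for Ly6d and from -1.43 to 0.02 for Golm1.

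Variation between tumors of the same genotype was a common property of the markers. The SD of log2 CPM within genotypes, pooled over both, was 1.61 for Ly6d, 1.16 for Gpc3, 1.0 for Afp, 0.94 for Tff3, 0.60 for Akr1c18 and 0.49 for Golm1. The median over all tested genes was 0.23, and over the 9652 genes with a mean of at least 5 CPM it was 0.18. Among those better covered genes Ly6d lay at percentile 99.7, Gpc3 at 99.2, Afp at 98.85, Tff3 at 98.7, Akr1c18 at 95.5 and Golm1 at 92.2. Among all tested genes the percentiles ran from 84.1 for Golm1 to 99.7 for Ly6d. The spread of Afp differed most between the groups, at 1.39 within WT and 0.26 within Nr2e3-/- tumors, a difference that was not tested with 3 libraries each. Genotype accounted for 0.00545% of the variance of log2 CPM for Gpc3, 10.6% for Ly6d, 19.6% for Akr1c18 and 20.2% for Tff3.

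**Figure D3:**
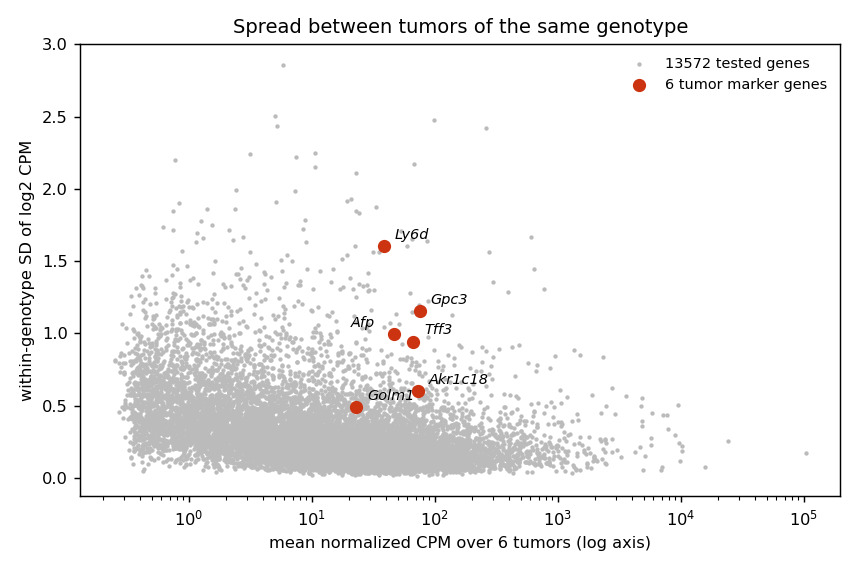
SD of log2 CPM within genotypes against mean CPM over the 6 tumors on a log axis. Grey points are all 13572 tested genes and labelled points the 6 markers. The markers lie above the median of 0.23, with Ly6d at 1.61 and Golm1 at 0.49.

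The markers were not all high in the same tumor. WT 1 held the highest level of Afp, Golm1 and Akr1c18, WT 2 that of Ly6d, Nr2e3-/- 1 that of Gpc3 and Nr2e3-/- 2 that of Tff3. Among WT tumors, WT 3 was the lowest for 6 of 6 markers and WT 1 the highest for 5. Among Nr2e3-/- tumors, the second was the highest for 5 and the third the lowest for 4. How often each library was highest or lowest over all tested genes was not counted, so these places are not particular to the markers. All 15 pairs of markers were correlated over the 6 libraries on log2 CPM. The 3 highest values joined Afp, Golm1 and Akr1c18. Pearson's r was 0.85 for Afp with Golm1, with an exact permutation p of 0.0139 and 0.208 after adjustment over the 15 pairs. Spearman's rho was 0.77 with an exact permutation p of 0.103. Without the 2 libraries farthest from the median of Afp, r was 0.25, so its value depended on those libraries. Leaving them out also narrowed the range of Afp. Afp with Akr1c18 had r = 0.83, with an exact permutation p of 0.0347 and an adjusted p of 0.229. Without the same 2 libraries r was 0.75. Golm1 with Akr1c18 had r = 0.84, with an exact permutation p of 0.0458 and an adjusted p of 0.229. Without the 2 libraries farthest from the median of Golm1, r was 0.62. No pair passed the adjustment. Gpc3 and Ly6d, the 2 lipid-anchored surface proteins, had r = -0.20, which turned to 0.87 without the 2 libraries farthest from the median of Gpc3. The order of the pairs also depended on the genotype means: with each genotype centred on its own mean, the highest r was that of Tff3 with Akr1c18, 0.99, against 0.59 uncentred, and the 3 pairs named first had 0.79 to 0.80.

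**Figure D4:**
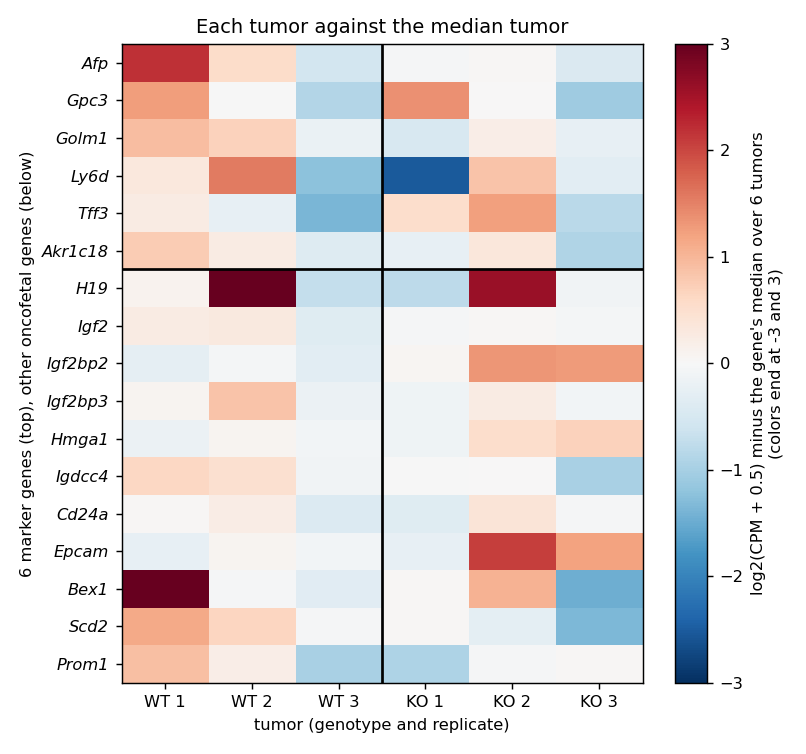
Heat map of log2(CPM + 0.5) in each tumor (columns) minus the median of that gene over the 6 tumors, for the 6 markers (top rows) and the 11 other oncofetal genes tested (lower rows), with colours ending at -3 and 3. WT 1 is the highest for Afp, Golm1 and Akr1c18, Nr2e3-/- (KO) 1 for Gpc3, KO 2 for Tff3 and WT 2 for Ly6d, and H19 is highest in WT 2.

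The genes whose pattern over the 6 libraries was most like that of each marker were looked up among 9646 genes with a mean of at least 5 CPM. For Afp they included Ptpre (r = 0.985), with 13.0 CPM in WT 1 and 5.79 to 8.69 CPM in the other tumors, and Atp6v0a1 (0.983). For Gpc3 they included Smo (0.973) and Slc25a17 (0.972). For Golm1 the nearest were 1700034H15Rik (0.991), Fhl3 (0.978) and Foxp4 (0.977), and for Ly6d they were Fbxl5 (0.991), Tle3 (0.983) and Zfp408 (0.982). Tff3 was nearest to Dip2b (0.98), Hk1 (0.965) and Col4a2 (0.965), and Akr1c18 to Itm2c (0.993), Hexa (0.988) and Nid1 (0.988). With 6 libraries and so many candidates, high values of r arise readily, and they are given as a description.

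Levels of different markers can be compared only per length of transcript. The length used here was that of all annotated exons of a gene merged, not that of the transcript expressed. It was 3368 bases for Afp (5 transcripts), 2690 for Gpc3 (2), 4424 for Golm1 (4) and 1207 for Akr1c18 (2). For Ly6d and Tff3, with 1 transcript each, it was 744 and 493 bases. Per kilobase of exon, the median over the 6 libraries was 122.9 CPM for Tff3, 58.2 for Akr1c18, 42.7 for Ly6d, 21.0 for Gpc3, 8.73 for Afp and 4.44 for Golm1. The ranges of each pair of neighbours in this order overlapped. Within libraries Tff3 was above Akr1c18, Gpc3 above Afp and Afp above Golm1 in 6 of 6, Ly6d above Gpc3 in 5, and Akr1c18 above Ly6d in 3. The order of genes with several transcripts depends on the length used. In WT 1, Afp and Gpc3 were nearly equal before the division, at 134.98 and 135.63 CPM. In GENCODE M21 on GRCm38, the protein-coding gene Afp lies on chromosome 5 at 90490737 to 90508907 and Gpc3 on chromosome X at 52272426 to 52613950. Golm1 lies on chromosome 13 at 59634626 to 59675811 and Akr1c18 on the same chromosome at 4132615 to 4150654. Ly6d lies on chromosome 15 at 74762056 to 74763620 and Tff3 on chromosome 17 at 31125306 to 31129646. Antisense genes overlap exons of Afp (Gm43449) and Gpc3 (Gm14582 and A630012P03Rik), so counts of Afp and Gpc3 share the strand limit given for Golm1. A630012P03Rik had at most 2 counts in any library, and the count table has no row under the symbols Gm43449 and Gm14582. Whether exons of the antisense genes lie in the overlap was not looked up.

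Other genes of the fetal liver program were mostly low. Of 17 further oncofetal genes matched in the table, 11 were tested, and Dlk1, Igf2bp1, Lin28b, Hmga2, Sall4 and Trim71 were too low to test. At an unadjusted p under 0.05, 2 were higher and 1 was lower in Nr2e3-/- tumors (3 of 11, beside 21.5% of all tested genes), 0 passed the adjustment in edgeR's quasi-likelihood test, and the median log2 fold change was -0.44. The 2 higher ones were Igf2bp2, an RNA-binding protein, with 1.02 ± 0.149 CPM in WT and 2.97 ± 1.43 CPM in Nr2e3-/- tumors (SD, n = 3 each), and Epcam, a surface marker of progenitor and bile duct cells. Epcam was 1.80, 2.37 and 2.08 CPM in WT and 1.79, 10.95 and 5.79 CPM in Nr2e3-/- tumors. The lower one was Scd2, a fatty acid desaturase of fetal liver, at 146 ± 56.1 CPM in WT and 68.8 ± 29.9 CPM in Nr2e3-/- tumors (SD, n = 3 each), with a log2 fold change of -1.09 ± 0.40 (SE). H19, an imprinted fetal RNA silenced after birth along with Afp, was 17.0, 447 and 9.40 CPM in WT and 8.87, 98.0 and 14.5 CPM in Nr2e3-/- tumors. It was thus highest in the second tumor of each genotype, as Ly6d was, and not in WT 1, where Afp was highest. Its log2 fold change was -1.95 ± 1.52 (SE), and groups overlapped. Bex1 was by contrast highest in WT 1, as Afp was, at 13.5 CPM, against 0.0541 to 2.64 CPM in the other 5 tumors.

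Factors known to act on the Afp promoter and enhancers were expressed in all tumors. All 11 on the list passed the filter, and 5 had a higher and 2 a lower mean in the knockout at an unadjusted p under 0.05 (7 of 11, beside 21.5% of all tested genes), and 0 passed the adjustment in edgeR's quasi-likelihood test. The levels of the 2 genotypes did not overlap for 8 of the 11, beside 26.8% of all genes, and the median log2 fold change was 0.40. The lists were chosen with earlier results of these data known, so their shares are descriptions and were not tested as sets. Zhx2, which represses Afp and H19 after birth, was 18.1 ± 0.729 CPM in WT and 25.2 ± 3.73 CPM in Nr2e3-/- tumors (SD, n = 3 each), a log2 fold change of 0.48 ± 0.13 (SE). Trp53 had a log2 fold change of 0.61, Hnf4a of 0.50, Nr5a2 of 0.40 and Cebpb of 1.04. Foxa1, a pioneer factor of liver genes, was lower, at 35.1 ± 2.56 CPM in WT and 22.2 ± 2.77 CPM in Nr2e3-/- tumors (SD, n = 3 each), as was Cebpa at -0.36. Zhx2 was 18.5, 17.3 and 18.6 CPM in WT 1, 2 and 3, and its part in the levels of Afp was not tested. Alb, Afm and Gc, the neighbours of Afp in the albumin gene cluster, had log2 fold changes of -0.27, 0.04 and 0.09, with 0 of 3 at an unadjusted p under 0.05. In WT 1, where Afp was highest, Alb was between its values in WT 2 and WT 3.

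Relatives of the other markers were read for comparison. Among 5 further glypicans, 3 were tested: Gpc1 (log2 fold change -1.07) and Gpc6 (-1.33) were lower in Nr2e3-/- tumors at an unadjusted p under 0.05 (2 of 3, beside 21.5% of all tested genes), and Gpc4 had 46.8 ± 0.566 CPM in WT and 53.6 ± 2.23 CPM in Nr2e3-/- tumors (SD, n = 3 each). Of these, 0 passed the adjustment in edgeR's quasi-likelihood test. A further 8 genes have products that build, trim or bind the heparan sulfate chains or the core of glypicans. Among them Ext1 was higher (0.62) and Ndst1 lower (-0.36) at an unadjusted p under 0.05 in the same test. These 2 of 8 lay near the 21.5% of all tested genes. Notum was 24.2 ± 4.86 CPM in WT and 15.8 ± 11.5 CPM in Nr2e3-/- tumors (SD, n = 3 each). Casc4, the closest relative of Golm1, was lower by the unadjusted p, at 17.2 ± 4.02 CPM in WT and 7.96 ± 1.49 CPM in Nr2e3-/- tumors (SD, n = 3 each), without overlap. For Casc4 the log2 fold change was -1.11 ± 0.22 (SE), with an adjusted p of 0.0936 in edgeR's quasi-likelihood test. Of 10 further Ly6 family genes, 5 passed the filter and 0 had an unadjusted p under 0.05. Ly6e was the most abundant of them, at 302 ± 28.7 CPM in WT and 382 ± 156 CPM in Nr2e3-/- tumors (SD, n = 3 each). Of the other trefoil genes Tff1 was at about 1 CPM in both genotypes and Tff2 was too low to test. Of 7 other Akr1c genes 6 were tested, all 6 with negative log2 fold changes with a median of -0.13 and with 0 at an unadjusted p under 0.05.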

How the data were processed

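Single-end RNA-seq libraries of 3 WT and 3 Nr2e3-/- liver tumors were analysed, grouped by the labels. The authors aligned reads to mm10 with TopHat, counted them per gene with featureCounts and deposited the raw counts used here. TopHat's version and the strand setting are not given in the sources used here. Deposited normalized values and a table of the authors' own comparison (fold changes and p-values) were not used. Genes were filtered with filterByExpr (minimum count 10) and tested, two-sided, with edgeR 4.0.16 (quasi-likelihood, TMM, Benjamini-Hochberg over 13572 genes). Log2 CPM used a prior count of 2. Single levels were compared by exact permutation. Alternatives used other scalings and filters, DESeq2 1.42.0, limma 3.58.1 (voom with sample weights), a replicate block and each library left out. Scripts were tested on simulated data. Named genes were the 6 markers, genes of related lists and the 3 genes most correlated with each marker; some of these genes are not reported here. The members and lists were chosen with earlier results of these data known. The library totals of 15376261 to 28690279 reads set the counting precision.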

Additional observations from a re-analysis of the deposited data

How the results depend on the processing

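None of the 6 markers was called at an adjusted p under 0.05 in any of 13 alternatives; the lowest adjusted p was 0.144, for Akr1c18. At an unadjusted p under 0.05, 1 marker was counted with upper quartile scaling, 1 with DESeq2, 2 without a filter, 1 with the replicate block, and 0 to 2 with 1 library left out, the 2 being Afp and Golm1 without WT 3. Golm1 passed it in 5 alternatives, Afp and Tff3 in 2 each. The log2 fold change of Gpc3 was -0.0041 with upper quartile scaling, -0.74 with limma-voom, -0.012 with the replicate block, and -0.81 to 0.83 with 1 library left out; that of Ly6d was -1.68 to 0.17, positive without WT 2. The other 4 markers kept their direction in all 13. Over all genes, 13 calls became 8 with upper quartile scaling, 7 with at least 10 counts in every library, 70 without a filter, 1093 with DESeq2, 2360 with limma-voom and 0 to 3022 with 1 library left out (3022 without Nr2e3-/- 1; 0, by edgeR, without WT 1, WT 3 or Nr2e3-/- 3, where 2151, 1785 and 1693 genes had an unadjusted p under 0.05). With the replicate block edgeR called 0 genes, with 2438 at an unadjusted p under 0.05. The labels share replicate numbers, but deviations of same-numbered libraries correlated at -0.08, 0.22 and 0.02 and 2 of 6 libraries were closest to their own number, so the numbers were not taken as pairs. The cause of these changes was not tested.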

Other observations

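For the B cell markers Cd79a, Cd79b and Ms4a1, every Nr2e3-/- tumor lay below every WT tumor (3 of 3, beside 26.8% of all tested genes without overlap). The unadjusted p of these 3 lay between 0.00278 and 0.0119 in edgeR's quasi-likelihood test, where 21.5% of all tested genes were under 0.05. After adjustment 0 of them passed. Their levels were low: Cd79b was 1.27 ± 0.107 CPM in WT and 0.440 ± 0.192 CPM in Nr2e3-/- tumors (SD, n = 3 each). Spp1, a secreted phosphoprotein of bile duct cells and macrophages, was 107, 46.0 and 47.1 CPM in WT and 56.3, 410 and 171 CPM in Nr2e3-/- tumors, with an unadjusted p of 0.0433 in the same fit. Mki67, a marker of dividing cells, was 9.45, 4.94 and 4.44 CPM in WT and 2.52, 12.9 and 3.03 CPM in Nr2e3-/- tumors, so that its highest level, like that of Tff3, was in Nr2e3-/- 2.

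With 3 tumors per genotype, the interval of a marker's fold change measures the spread between libraries. A counting interval is given here only for Ly6d, and the sources of that spread were not tested. Tumor stage, size and the share of tumor cells in each piece are not given in the sources used here.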
